A study of Mus musculus with 12 samples.

Results

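The control genes of gluconeogenesis and glycolysis in the liver were described across genotype and diet: *Pck1*, *G6pc*, *Fbp1*, *Pcx*, *Pklr*, *Pfkfb1*, *Pfkfb2*, *Pfkfb3* and *Irs2*. They were taken by name as the enzymes that set the flow between glucose and pyruvate in hepatocytes, together with 1 adaptor of the insulin receptor, and the rule uses no measured value, although the genes were picked with earlier results of these data known. These 9 genes were 9 of the 24532 genes in the table, and all 9 were among the 14038 genes with enough counts to be tested.

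Gluconeogenesis builds glucose from lactate, alanine and glycerol, and glycolysis runs the other way. The directions share most enzymes and differ at a few steps that run one way only: PCX and PCK1 together bypass pyruvate kinase (PKLR in the liver), FBP1 opposes phosphofructokinase, and G6PC opposes glucokinase. In the fasted liver glucagon, through cAMP, raises transcription of *Pck1* and *G6pc*, and insulin lowers it through the IRS proteins and FOXO1. The PFKFB enzymes make and break fructose 2,6-bisphosphate, which activates phosphofructokinase and inhibits FBP1, so that they bear on both directions.

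RNA-seq (paired-end TruSeq stranded mRNA libraries) was carried out on whole livers of male C57BL/6 mice in 4 groups of 3 livers each. WT mice were *Ahr* fl/fl littermates without Cre, and *Ahr* HKO mice were *Ahr* fl/fl mice that also carried *Alb-Cre*, in which the albumin promoter drives Cre in hepatocytes. Both genotypes thus carried the floxed *Ahr* allele, and other liver cells keep the gene in *Ahr* HKO mice. Mice aged 10 to 12 weeks at the start received for 5 weeks the Lieber-DeCarli liquid diet with 5% ethanol by volume, which supplied 36% of calories (WT-EtOH and HKO-EtOH), or an isocaloric control liquid diet (WT-con and HKO-con). The livers were picked at random from larger feeding groups. The feeding state and time of day at collection were not given in the sources used here. The question was how ethanol feeding, hepatocyte loss of AhR (the aryl hydrocarbon receptor, a ligand-activated transcription factor) and the combination of both altered liver transcripts.

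Each library held 46306518 to 74336255 counted reads, and 3 counts corresponded to 0.0425 to 0.0676 CPM (counts scaled to library size), which reflects the error of counting alone. The count of the targeted gene did not follow the labels. *Ahr* measured 20.1, 16.6 and 18.3 CPM in the WT-con livers and 65.5, 41.3 and 63.3 CPM in the HKO-con livers (log2 FC 1.63, adjusted *P* value = 0.00164, edgeR), and 20.8 to 30.5 against 24.7 to 41.8 CPM on the ethanol diet (log2 FC 0.40, adjusted *P* value = 0.316). Counts summed over a gene do not check the loss of 1 exon, and groups are therefore given as the libraries are labelled. *Cyp1a2*, a target gene of AhR, was lower in the libraries labelled *Ahr* HKO on both diets (log2 FC -1.67, adjusted *P* value = 0.0197, and -0.73, 0.0433), whereas *Cyp1a1* was higher on the control diet (1.5, 0.0453) and had a log2 FC of -0.04 on the ethanol diet (0.956). Of 9 hepatocyte markers 8 were found by symbol and together reached 89410 to 139696 CPM in a liver. The 7 Kupffer cell markers, macrophages of the liver, summed to 328-429 CPM in WT-con, 297-756 in WT-EtOH, 295-841 in HKO-con and 182-230 in HKO-EtOH livers, and 7 of 7 fell with ethanol in *Ahr* HKO (median log2 FC -1.56). In these whole livers, fewer cells of a type and less RNA per cell cannot be told apart. Of the adipocyte markers, HKO-con liver 1 stood apart with a sum of 34.8 CPM against at most 2.26 CPM in every other liver, of which *Cfd* made up 34.7, while *Plin1*, *Lep* and *Retn* were at 0 in that group. The same liver had the highest sums of the Kupffer cell (841 CPM), cholangiocyte (476 CPM, of which *Spp1* 462) and leukocyte markers (32.4 CPM) of all 12 livers.

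Counts of members are given beside the same count over all tested genes, and differences are log2 FC from edgeR's quasi-likelihood test with *P* values adjusted by Benjamini-Hochberg over the 14038 genes. The threshold for a call was an adjusted *P* value of 0.05. The comparisons share groups with each other, so their calls are not independent. With ethanol in WT, 3 of the 9 genes were called (*Pck1* and *Fbp1* higher, *Pfkfb1* lower) against 9.47% of all genes, and the 2 groups did not overlap for 4 of 9 against 32.9%. With ethanol in *Ahr* HKO, 1 of 9 was called (*Pck1*, higher) against 30.8%, and 2 of 9 did not overlap against 49.8%. On the control diet, 3 of 9 were higher in *Ahr* HKO than in WT (*Pck1*, *Pfkfb2* and *Pfkfb3*) against 29.6% called, and 5 of 9 did not overlap against 47.3%. On the ethanol diet, 3 of 9 were higher in *Ahr* HKO (*Pfkfb1*, *Pfkfb2* and *Pfkfb3*) against 1.1% called, which were 155 genes, and 6 of 9 did not overlap against 27.9%. The interaction of genotype and diet called 1 of 9 (*Pfkfb1*) against 22.3%. The shares called in *Ahr* HKO with ethanol, and in the interaction, were below the shares over all genes. In the same order of comparisons, the median log2 FC of the 9 genes was 0.32, 0.41, 0.47, 0.11 and -0.23, beside medians over all tested genes of 0.03, -0.02, 0.0, -0.01 and -0.03.

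**Figure D1:**
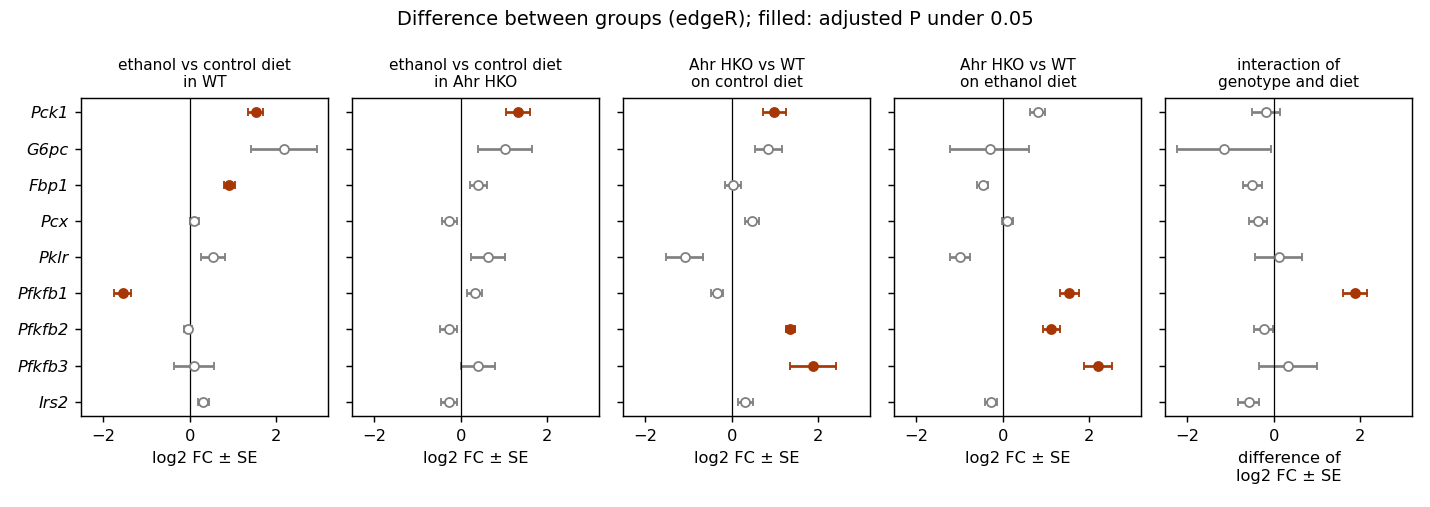
Log2 FC (x axis) of each of the 9 genes (y axis) with its standard error in the 4 comparisons of a pair of groups and the interaction of genotype and diet, with filled symbols for an adjusted *P* value under 0.05. *Pck1* was filled in 3 of the comparisons, and *Pfkfb1* stood at -1.55 with ethanol in WT and at 1.89 in the interaction.

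Levels of different genes were compared by the deposited FPKM, which is scaled to gene length. *Fbp1* and *Pck1* were the most abundant of the 9 in every group, and *Irs2* the least. In WT-con livers the order was *Fbp1* (586 ± 31.8 FPKM, SD, n = 3), *Pck1* (411 ± 57.9), *Pcx* (147), *Pklr* (117), *G6pc* (54.9), *Pfkfb1* (26.1), *Pfkfb2* (4.85), *Pfkfb3* (3.36) and *Irs2* (2.71). The ranges of *Pcx* and *Pklr*, *Pklr* and *G6pc*, *Pfkfb2* and *Pfkfb3*, and *Pfkfb3* and *Irs2* overlapped, so those neighbours were not separated. In the other groups *Pck1* had the highest mean, at 1319 ± 202 FPKM in WT-EtOH, 822 ± 270.0 in HKO-con and 1977 ± 256 in HKO-EtOH livers. *Fbp1* followed at 1235 ± 132, 603 ± 101 and 771 ± 89.7 FPKM, and the ranges of the 2 genes overlapped in WT-EtOH and HKO-con but not in HKO-EtOH livers. *Pfkfb3* ranked above *Pfkfb2* by mean in both *Ahr* HKO groups (12.4 against 11.8 FPKM on the control diet and 15.9 against 9.20 on the ethanol diet). The ranges of these 2 genes overlapped in both groups, so they were not separated there either. The highest group mean was 216 times the lowest in WT-con and 734 times the lowest in HKO-EtOH.

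**Figure D2:**
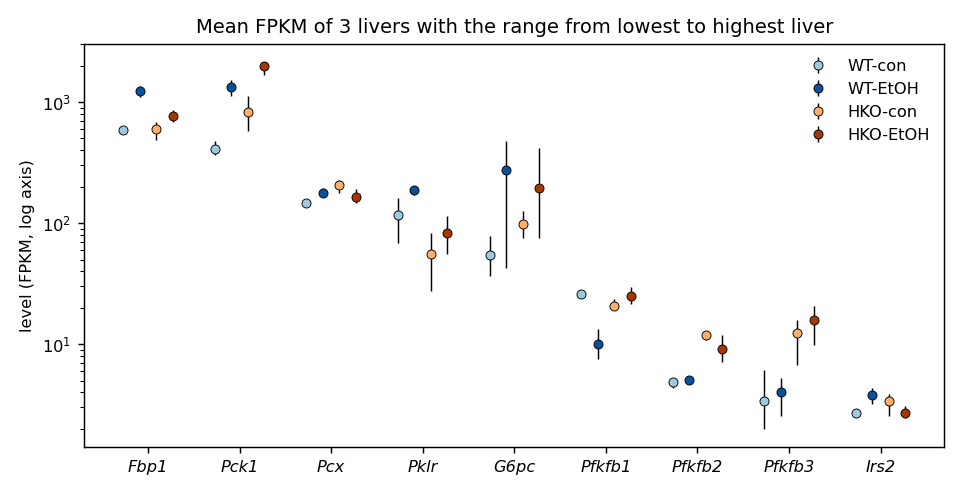
Mean FPKM (log axis) of the 9 genes in each of the 4 groups, with a line from the lowest to the highest of the 3 livers. *Fbp1* led in WT-con livers (586 FPKM) and *Pck1* in the other 3 groups (1319, 822 and 1977 FPKM).

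The promoters of the 9 genes were read from RefSeq (GRCm38.p6), whose table held an entry for all 9 genes, in 17 windows of 250 bases before an annotated start. They are shown to let the differences in transcript level be set beside the sequence in front of each gene. In all, 5 motifs were searched on both strands, none of which contains another: TGACG (the core of the cAMP response element), GCGTG (the core to which AhR binds), CACGTG (an E-box), GTAAACA (a FOXO motif) and TATAAA. The 4 stretches given lie outside annotated exons and read from 5′ to 3′ on the strand of the gene, with capitals on each match to the first 3 motifs on either strand. No stretch of *Pfkfb1* is given, because the window at the start of its tabled transcript overlaps annotated exons.
Pck1, chr2:173152823-173153047, plus strand: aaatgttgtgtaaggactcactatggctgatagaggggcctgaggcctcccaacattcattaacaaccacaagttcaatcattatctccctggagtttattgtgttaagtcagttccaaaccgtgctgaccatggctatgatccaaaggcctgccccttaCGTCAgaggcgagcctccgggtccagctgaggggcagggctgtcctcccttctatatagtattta
Fbp1, chr13:62888283-62888532, minus strand: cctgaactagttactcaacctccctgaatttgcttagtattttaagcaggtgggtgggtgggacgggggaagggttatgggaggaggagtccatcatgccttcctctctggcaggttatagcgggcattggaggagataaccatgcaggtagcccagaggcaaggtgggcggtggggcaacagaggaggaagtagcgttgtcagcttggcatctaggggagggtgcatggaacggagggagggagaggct
Pfkfb2, chr1:130716049-130716298, minus strand: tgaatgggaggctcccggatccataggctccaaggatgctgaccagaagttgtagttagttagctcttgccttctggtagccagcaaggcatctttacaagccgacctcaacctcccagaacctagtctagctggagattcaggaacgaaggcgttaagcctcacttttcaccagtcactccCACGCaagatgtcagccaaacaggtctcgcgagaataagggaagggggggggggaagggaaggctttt
Pfkfb3, chr2:11502102-11502340, minus strand: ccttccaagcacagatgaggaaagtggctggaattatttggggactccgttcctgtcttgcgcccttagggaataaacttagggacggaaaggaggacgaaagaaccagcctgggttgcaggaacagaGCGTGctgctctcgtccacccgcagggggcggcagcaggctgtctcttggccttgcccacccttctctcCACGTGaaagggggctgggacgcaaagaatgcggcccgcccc
The *Pck1* stretch holds 1 core of the cAMP response element, read as CGTCA, 90 bases before the start. The *Fbp1* stretch holds none of the 5 motifs. The *Pfkfb2* stretch holds the AhR core on the opposite strand, as CACGC, 68 bases before the start of its window, which is not the start of a tabled transcript. A second *Pfkfb2* window, before the start of a tabled transcript, lies in annotated exons but for 23 bases, so it is not printed, and it holds 1 TGACG, 2 GCGTG and 1 CACGTG. The *Pfkfb3* stretch holds the AhR core 122 bases and an E-box 53 bases before the start, and its window 1 TGACG beyond the printed end. Over the 17 windows of the 9 genes, TGACG was found in 4 (23.5%), GCGTG in 5 (29.4%), CACGTG in 4 (23.5%), TATAAA in 3 (17.6%) and GTAAACA in 0. Of the 32851 windows of the table, 17.8%, 28.2%, 6.02%, 12.4% and 3.17% held these motifs. A match is a stretch of letters and no sign that a factor bound there.

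*Pck1* (Entrez 18534, chromosome 2, 173153073-173159274, GRCm38.p6) encodes the cytosolic phosphoenolpyruvate carboxykinase, which turns oxaloacetate into phosphoenolpyruvate and is a classic target of cAMP signaling. It rose with ethanol in both genotypes. WT-con livers measured 1092, 1017 and 1307 CPM, and WT-EtOH livers 2948, 3010.0 and 3787 CPM. HKO-con livers measured 3044, 1494 and 2226 CPM, and HKO-EtOH livers 4779, 5991 and 6256 CPM. Every ethanol liver lay above every control-diet liver of its genotype, and every HKO-con liver lay above every WT-con liver. Ethanol raised *Pck1* 2.88-fold in WT (log2 FC 1.53, SE 0.166, adjusted *P* value = 0.00403, edgeR) and 2.51-fold in *Ahr* HKO (1.33, SE 0.28, 0.0131). Both calls held in each of 6 fits without 1 liver. The interaction gave a log2 difference of -0.18 (adjusted *P* value = 0.739), which does not show that the 2 effects were alike. On the control diet, *Pck1* was 1.98-fold higher in *Ahr* HKO than in WT (log2 FC 0.99, SE 0.262, adjusted *P* value = 0.0272). That call was lost without HKO-con liver 1 (0.72, 0.0647), WT-con liver 1 (0.96, 0.083), WT-con liver 2 (0.91, 0.0975) or WT-con liver 3 (1.10, 0.0585). HKO-con liver 1, with the highest *Pck1* of its group, was the one with the highest adipocyte, Kupffer cell, cholangiocyte and leukocyte marker sums (34.8, 841, 476 and 32.4 CPM). *Adipoq* measured 0.0653 CPM there, and the part of these cells in its *Pck1* level was not tested. On the ethanol diet the groups did not overlap, but the log2 FC of 0.81 (SE 0.169) had an adjusted *P* value of 0.0744. Of 8 alternatives 1 called it, DESeq2 (8.53e-05), and limma on quantile-normalized log2(FPKM + 1) gave a log2 FC of 0.16 (0.56).

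*Fbp1* (Entrez 14121, chromosome 13, 62864753-62888298) encodes fructose-1,6-bisphosphatase, the enzyme that fructose 2,6-bisphosphate inhibits. Its CPM was 860.0, 975 and 919 in WT-con and 1844, 1773 and 1543 in WT-EtOH livers. In *Ahr* HKO livers it was 1056, 714 and 1036 CPM on the control diet and 1246, 1368 and 1131 CPM on the ethanol diet. The ethanol livers lay above the control-diet livers in both genotypes, and the WT-EtOH livers were the highest of all. *Fbp1* rose 1.89-fold with ethanol in WT (log2 FC 0.92, SE 0.126, adjusted *P* value = 0.00895, edgeR), in each of 6 fits without 1 liver. In *Ahr* HKO the log2 FC was 0.41 (SE 0.191, adjusted *P* value = 0.138). The test of the difference between these effects gave -0.49 (SE 0.222, adjusted *P* value = 0.136), and -0.65 (0.0266) without HKO-con liver 2, the lowest of its group. With limma on quantile-normalized log2(FPKM + 1), that difference was -1.03 (adjusted *P* value = 0.00623), so the call depends on the values used. Between genotypes, *Fbp1* gave 0.03 on the control diet (adjusted *P* value = 0.912) and -0.46 on the ethanol diet (0.123). The latter was called with DESeq2 (-0.47, 0.00992) and was -1.05 (0.0612) with limma on log2(FPKM + 1).

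*G6pc* (Entrez 14377, chromosome 11, 101367716-101377903) encodes the catalytic subunit of glucose-6-phosphatase, the last step before glucose leaves the cell. It had the widest range of the 9 genes over the 12 livers, 12.1-fold, and in both ethanol groups 1 liver stood far from the others. WT-con livers measured 118, 88.9 and 187 CPM, and WT-EtOH livers 684, 84.3 and 1019 CPM. HKO-con livers measured 225, 168 and 313 CPM, and HKO-EtOH livers 1014, 181 and 251 CPM. WT-EtOH liver 2 lay below all WT-con livers while the other two exceeded them, and in HKO-EtOH a single liver, number 1, was high. The groups overlapped in all 4 comparisons. The log2 FC with ethanol in WT was 2.19 (SE 0.769, adjusted *P* value = 0.124, edgeR), and 2.70 (0.0118) without WT-EtOH liver 2. In *Ahr* HKO it was 1.03 (adjusted *P* value = 0.246). On the control diet the log2 FC between genotypes was 0.85 (0.0836), and 1.18 (0.0358) without WT-con liver 3. Of 8 alternatives 2 called it, DESeq2 (0.0183) and the replicate block (0.0118), while all 12 libraries in 1 fit gave 0.448. WT-EtOH liver 2 had a Kupffer cell marker sum of 756 CPM, against 315 and 297 CPM in livers 1 and 3, whose part in its *G6pc* level was not tested. In the WT-EtOH livers *G6pc* FPKM was 0.0324 to 0.312 times that of *Pck1*.

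*Pcx* (Entrez 18563, chromosome 19, 4510472-4621752) encodes pyruvate carboxylase, which makes oxaloacetate from pyruvate in mitochondria. It was the steadiest of the gluconeogenic genes, with a 1.69-fold range over the 12 livers. WT-con livers measured 632, 705 and 606 CPM and HKO-con livers 927, 728 and 1024 CPM. These groups did not overlap, with a log2 FC of 0.47 (adjusted *P* value = 0.0647, edgeR) and 0.60 (0.0232) without HKO-con liver 2. Of 8 alternatives 4 called it. These were DESeq2 (0.0163), all 12 libraries in 1 fit (0.029), and limma on log2(FPKM + 1) (0.0103) and on log2(FPKM + 0.1) (0.0228). WT-EtOH livers measured 697, 704 and 682 CPM and HKO-EtOH livers 865, 698 and 682 CPM. The diet effects were log2 FC 0.11 in WT (adjusted *P* value = 0.55) and -0.26 in *Ahr* HKO (0.309).

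*Pklr* (Entrez 18770, chromosome 3, 89136122-89146815) encodes the liver pyruvate kinase, the last enzyme of glycolysis and a target of the carbohydrate-responsive factor ChREBP. No comparison called it with edgeR. It measured 191, 346 and 449.9 CPM in WT-con, 457, 449 and 513 CPM in WT-EtOH, 76.0, 219 and 167 CPM in HKO-con and 329, 223 and 168 CPM in HKO-EtOH livers. The HKO-EtOH livers all lay below the WT-EtOH livers, and the HKO-con and WT-con livers overlapped. The log2 FC between genotypes was -1.09 on the control diet (SE 0.428, adjusted *P* value = 0.0939, edgeR) and -0.98 on the ethanol diet (SE 0.23, 0.0899), the latter reaching -1.27 (0.0422) without HKO-EtOH liver 1. Of 8 alternatives, DESeq2 (0.0137), the replicate block (0.0161) and all 12 libraries in 1 fit (0.0499) called it on the control diet, and DESeq2 (0.00149) on the ethanol diet. The diet log2 FC was 0.54 in WT (adjusted *P* value = 0.27) and 0.64 in *Ahr* HKO (0.248). Set against *Pklr*, *Pck1* FPKM was 2.96 to 5.81 times as high in WT-con and 6.57 to 7.52 times in WT-EtOH livers. In *Ahr* HKO livers that ratio ran from 6.95 to 40.8 on the control diet and from 14.8 to 38.1 on the ethanol diet.

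**Figure D3:**
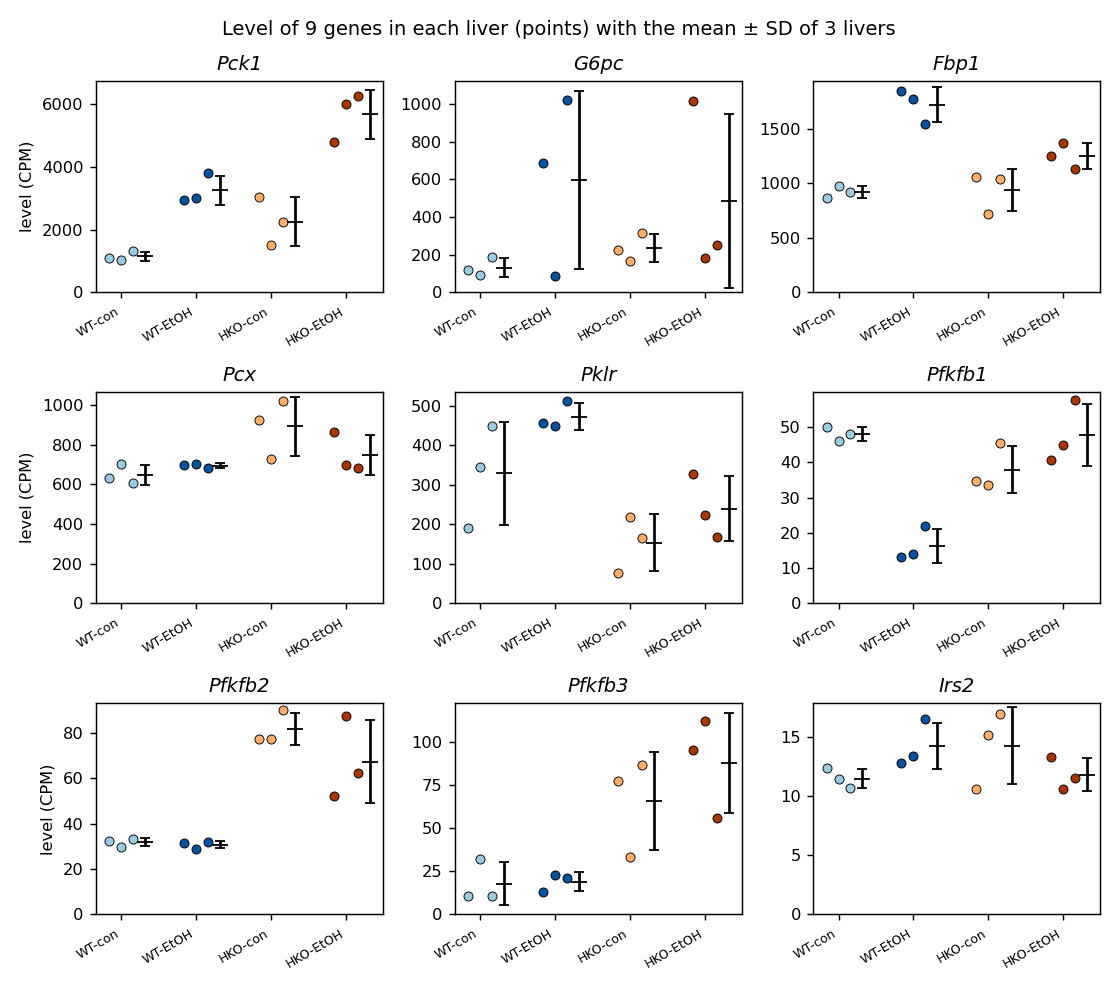
CPM (y axis, its own scale for each gene) of the 9 genes in each liver, with the mean ± SD of the 3 livers of a group. *Pck1* rises from WT-con to WT-EtOH and from HKO-con to HKO-EtOH livers, *Pfkfb1* is low in WT-EtOH livers alone (13.2 to 21.8 CPM), and *Pfkfb2* is higher in both *Ahr* HKO groups.

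*Pfkfb1* (Entrez 18639, chromosome X, 150587445-150643878) encodes the liver form of the bifunctional enzyme, which protein kinase A switches from making to breaking fructose 2,6-bisphosphate. Ethanol lowered it in WT and not detectably in *Ahr* HKO. It measured 50.1, 46.1 and 48.1 CPM in WT-con and 13.2, 13.9 and 21.8 CPM in WT-EtOH livers. HKO-con livers measured 34.8, 33.6 and 45.5 CPM, and HKO-EtOH livers 40.6, 45.0 and 57.6 CPM. The WT-EtOH livers lay below all the other 9 livers. *Pfkfb1* fell 2.92-fold with ethanol in WT (log2 FC -1.55, SE 0.193, adjusted *P* value = 0.00625, edgeR), in each of 6 fits without 1 liver. The log2 FC with ethanol in *Ahr* HKO was 0.33 (adjusted *P* value = 0.193). The difference between these effects was 1.89 (SE 0.28, adjusted *P* value = 0.00149) and ran from 1.73 to 2.15, called each time, in 12 fits without 1 liver. On the ethanol diet *Pfkfb1* was 2.92-fold higher in *Ahr* HKO than in WT (log2 FC 1.55, SE 0.225, adjusted *P* value = 0.0383). That call was lost without HKO-EtOH liver 2 (1.58, 0.103), HKO-EtOH liver 3 (1.39, 0.142), WT-EtOH liver 1 (1.42, 0.106) or WT-EtOH liver 2 (1.47, 0.111). The genotypes differed by -0.34 on the control diet (0.10), and -0.49 (0.0141) without HKO-con liver 3.

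An exon of *Pfkfb1* overlaps one of *Apex2* on the opposite strand, and whether the counting used strand was not given in the sources used here. *Apex2* measured 5.78, 6.28 and 6.48 CPM in WT-con and 2.47, 3.99 and 4.97 CPM in WT-EtOH livers. The mean of *Pfkfb1* in the same groups was 48.1 ± 2.02 and 16.3 ± 4.77 CPM, and how reads in the overlap were assigned was not tested. *Pklr*, *Pfkfb2* and *Irs2* also overlap exons of a neighbor (*Hcn3*, *Yod1* and *Gm29427*, and *9530052E02Rik*), whose part in the values was not tested.

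*Pfkfb2* (Entrez 18640, chromosome 1, 130689043-130729253) encodes the form best known from heart, whose kinase activity rises when insulin signaling phosphorylates it. It was higher in *Ahr* HKO livers on both diets, and no difference with ethanol passed the test. WT-con livers measured 32.5, 29.7 and 33.2 CPM, and WT-EtOH livers 31.5, 28.8 and 31.9 CPM. HKO-con livers measured 77.4, 77.4 and 89.9 CPM, and HKO-EtOH livers 52.1, 87.4 and 62.2 CPM. All 6 *Ahr* HKO livers lay above all 6 WT livers. The difference was 2.57-fold on the control diet (log2 FC 1.36, SE 0.106, adjusted *P* value = 0.000791, edgeR), called in each of 6 fits without 1 liver. With ethanol it was 2.19-fold (log2 FC 1.13, SE 0.192, adjusted *P* value = 0.0491), at the edge of the threshold. This second call held only without HKO-EtOH liver 1, and was lost without HKO-EtOH liver 2 (0.89, 0.0621), HKO-EtOH liver 3 (1.19, 0.168), WT-EtOH liver 1 (1.15, 0.124), WT-EtOH liver 2 (1.11, 0.134) or WT-EtOH liver 3 (1.16, 0.0766). It was also lost with upper-quartile scaling (1.08, 0.0551), without the filter (1.13, 0.0524), with the replicate block (1.10, 0.0555) and with limma on log2(FPKM + 1) (0.89, 0.0705). The diet log2 FC was -0.04 in WT (adjusted *P* value = 0.834) and -0.28 in *Ahr* HKO (0.315).

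*Pfkfb3* (Entrez 170768, chromosome 2, 11471430-11554071) encodes the inducible form, whose kinase activity far exceeds its phosphatase activity and which proliferating and inflammatory cells use. It too was higher in *Ahr* HKO on both diets, with a wide spread. WT-con livers measured 10.7, 32.3 and 10.6 CPM, and WT-EtOH livers 12.9, 23.0 and 21.0 CPM. HKO-con livers measured 77.1, 33.4 and 86.6 CPM, and HKO-EtOH livers 95.4, 112 and 55.8 CPM. No *Ahr* HKO liver overlapped a WT liver, although HKO-con liver 2 (33.4 CPM) lay close to WT-con liver 2 (32.3 CPM). The difference was 3.69-fold on the control diet (log2 FC 1.88, SE 0.53, adjusted *P* value = 0.0339, edgeR). It was lost without HKO-con liver 1 (1.76, 0.0781), HKO-con liver 3 (1.63, 0.0788), WT-con liver 1 (1.62, 0.102) or WT-con liver 3 (1.61, 0.0999), and with the replicate block (2.04, 0.0749). With ethanol it was 4.62-fold (log2 FC 2.21, SE 0.317, adjusted *P* value = 0.0381). That call was lost in each of 6 fits without 1 liver, namely without HKO-EtOH liver 1 (2.15, 0.0679), 2 (1.98, 0.0928) or 3 (2.45, 0.0712), or without WT-EtOH liver 1 (2.00, 0.101), 2 (2.39, 0.0962) or 3 (2.28, 0.0592). Limma on log2(FPKM + 0.1) called none of the 3 PFKFB genes between genotypes on the ethanol diet, with adjusted *P* values of 0.0612 for *Pfkfb1*, 0.0803 for *Pfkfb2* and 0.0612 for *Pfkfb3*. Leukocyte markers summed to 12.2-15.2 CPM in WT-con, 13.2-22.02 in WT-EtOH, 18.4-32.4 in HKO-con and 8.58-10.4 in HKO-EtOH livers, and Kupffer cell markers to 841, 536 and 295 CPM in HKO-con livers 1 to 3 and to 182-230 CPM in HKO-EtOH livers. The part of these cells in the *Pfkfb3* levels was not tested.

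The makeup of the PFKFB transcripts was set out per liver as the share of each gene in their summed FPKM, with *Pfkfb4* added. *Pfkfb1* made up 78.8%, 70.0% and 78.0% in WT-con livers, and 50.1%, 45.2% and 57.6% in WT-EtOH livers. In *Ahr* HKO livers it made up 42.0%, 50.2% and 45.8% on the control diet and 46.4%, 42.3% and 61.5% on the ethanol diet. The WT-con livers thus stood above the other 9 livers, which overlapped one another. The sums behind the shares differed. Their mean was 34.6 FPKM in WT-con, 19.4 in WT-EtOH, 45.5 in HKO-con and 50.3 in HKO-EtOH livers. The lower share in WT-EtOH livers went with less *Pfkfb1*, and that in *Ahr* HKO livers with more *Pfkfb2* and *Pfkfb3*. In HKO-con livers *Pfkfb1* was also lower, at 19.1 to 23.8 FPKM against 24.7 to 27.3 in WT-con livers, a difference not called with edgeR. *Pfkfb3* made up 9.65% ± 6.54 (SD, n = 3), 20.6% ± 4.71, 26.7% ± 8.26 and 31.5% ± 9.52 in the same order of groups, and *Pfkfb4* at most 2.94% in any liver.

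**Figure D4:**
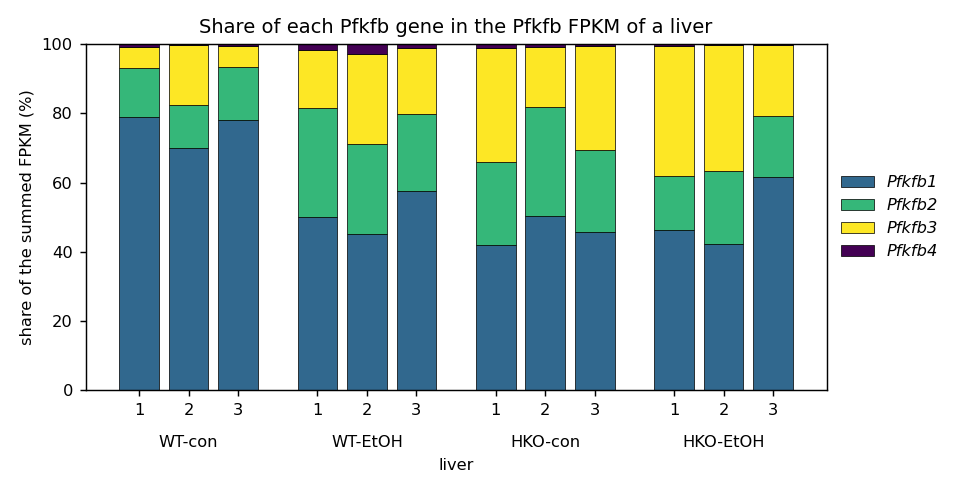
Share of *Pfkfb1* to *Pfkfb4* in their summed FPKM (y axis, percent) in each of the 12 livers. *Pfkfb1* makes up 70.0% to 78.8% in WT-con livers and 42.0% to 61.5% in the other livers.

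*Irs2* (Entrez 384783, chromosome 8, 10984681-11008929) encodes an adaptor that carries the insulin signal from the receptor and whose transcription rises in fasting. No comparison called it, and its range over the 12 livers was 1.6-fold. It measured 12.4, 11.4 and 10.7 CPM in WT-con, 12.9, 13.4 and 16.5 CPM in WT-EtOH, 10.7, 15.2 and 17.0 CPM in HKO-con and 13.4, 10.6 and 11.5 CPM in HKO-EtOH livers. The WT-EtOH livers lay above the WT-con livers by a log2 FC of 0.32 (adjusted *P* value = 0.168, edgeR), and the log2 FC with ethanol in *Ahr* HKO was -0.27 (0.31). The interaction was -0.58 (adjusted *P* value = 0.104), and -0.76 (0.0235) without HKO-con liver 1. Between genotypes on the control diet the log2 FC was 0.32 (0.223), and 0.49 (0.0309) without that liver.

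For the 5 called genes, the tested genes with the most similar profile over the 12 livers were found by the root mean square distance of centred log2 CPM among 14037 candidates. The nearest to *Pck1* were *Per1* (0.351), *Irf2bp2* (0.352) and *Tfrc* (0.40). The nearest to *Fbp1* were *Fth1* (0.10), *Gpx4* (0.155) and *Vat1* (0.16), and those to *Pfkfb1* were *Alas2* (0.232), *Mup3* (0.236) and *Fbxo31* (0.264). *Pfkfb2* had *Tns1* (0.183), *Kbtbd8* (0.225) and *Trim39* (0.245), and *Pfkfb3* had *Tmc7* (0.52), *AA986860* (0.52) and *Plin4* (0.58) at larger distances. *Fth1* has many near-identical copies and *Mup3* belongs to a multigene family, so their counts are uncertain.

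Around the 9 genes, 8 lists of genes of the same pathways were counted, to be read against the 9.47% and 30.8% of all genes called with ethanol in WT and *Ahr* HKO and the 29.6% called between genotypes on the control diet. With ethanol in WT, the other 21 tested genes for enzymes and transporters of gluconeogenesis had 2 called, both higher: *Pck2*, the mitochondrial form of the carboxykinase (log2 FC 0.76, adjusted *P* value = 0.0225, edgeR), and *Mpc1*, a subunit of the mitochondrial pyruvate carrier (0.49, 0.047). That is 9.52% of the list, close to the share over all genes, and the count was 0 with the replicate block and 0 without any 1 of the livers WT-con 1, 2 and 3 and WT-EtOH 1 and 2. In *Ahr* HKO ethanol called 5 higher and 1 lower, among them *Slc25a10* (0.87, 0.00324) and *Gpt* (0.79, 0.0273) higher and *Ldha* (-1.44, 0.00147) lower. Between genotypes, 4 were higher and 6 lower in *Ahr* HKO on the control diet. Among these *Ldha*, a lactate dehydrogenase subunit, was higher (1.14, 0.00567) and *Pck2* lower (-0.90, 0.00666), the opposite side from *Pck1*. The level of *Pck2* was far lower, with means of 4.38 CPM in WT-con and 2.34 CPM in HKO-con livers, against 1139 and 2255 CPM of *Pck1*. The median log2 FC of the list was 0.13, 0.29 and -0.06 in these comparisons, and 0.03 between genotypes on the ethanol diet.

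Of 24 tested glycolysis enzymes, 5 rose and 1 fell with ethanol in WT. *Eno1*, for enolase, rose 2.14-fold (log2 FC 1.10, adjusted *P* value = 0.00293, edgeR), and has a near-identical copy that makes its count uncertain. *Gpi1* (0.68, 0.0221) and *Gckr*, for the glucokinase regulator (0.61, 0.011), rose, and *Aldoc* fell (-1.55, 0.0243). In *Ahr* HKO 3 rose and 6 fell with ethanol, with *Pfkm* up (1.81, 0.00206) and *Ldha* and *Hk2* (-1.41, 0.00898) down. *Pfkm*, the muscle-type subunit of the phosphofructokinase that fructose 2,6-bisphosphate activates, was 2.99-fold lower in *Ahr* HKO than in WT on the control diet (log2 FC -1.58, adjusted *P* value = 0.00167). The means of *Pfkm* were 16.4 CPM in WT-con and 5.46 CPM in HKO-con livers, and its interaction was 1.59 (0.00189). The list's share called with ethanol was 25.0% in WT, against 9.47% of all genes, and 37.5% in *Ahr* HKO, against 30.8%. Between genotypes on the control diet it was 20.8%, below the 29.6% of all genes, with 2 genes higher and 3 lower in *Ahr* HKO. The 6 calls in WT became 2 with the replicate block and 1 to 5 without 1 liver (1 without WT-con liver 2), and the 9 in *Ahr* HKO became 4 to 11 (4 without HKO-EtOH liver 1 or 2).

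Of 11 genes for the pyruvate dehydrogenase complex and its kinases and phosphatases, *Pdk4* and *Pdha1* rose with ethanol in WT. PDK4 shuts off pyruvate oxidation and thereby spares carbon for gluconeogenesis. *Pdk4* rose 5.58-fold in WT (log2 FC 2.48, SE 0.244, adjusted *P* value = 0.00297, edgeR), from 2.87-3.05 to 11.9-22.2 CPM, and 1.96-fold in *Ahr* HKO (0.97, 0.0457), from 3.91-7.08 to 7.78-14.5 CPM. The interaction was -1.49 (0.0234), and *Pdk4* was higher in *Ahr* HKO than in WT on the control diet (0.98, 0.0199). *Pdk2* was 2.95-fold lower in *Ahr* HKO on the control diet (-1.56, 0.00105) and rose with ethanol there (1.46, 0.00269). The list's share called with ethanol was 18.2% in WT, against 9.47% of all genes, and 27.3% in *Ahr* HKO, below the 30.8% of all genes. Between genotypes on the control diet it was 36.4% against 29.6%, with 1 gene higher and 3 lower in *Ahr* HKO. Without 1 liver, 1 to 3 genes of the list were called with ethanol in WT and 1 to 4 in *Ahr* HKO.

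Of 16 genes of glycogen metabolism, 4 were called with ethanol in WT, all higher, and 8 rose and 1 fell in *Ahr* HKO. These are 25.0% and 56.2% of the list, against 9.47% and 30.8% of all genes. *Ppp1r3g*, a glycogen-targeting subunit of protein phosphatase 1, rose from a mean of 0.44 to 8.45 CPM in WT (log2 FC 4.28, SE 0.482, adjusted *P* value = 0.0048, edgeR). In *Ahr* HKO it rose from 0.126 ± 0.109 to 4.40 CPM (5.11, SE 0.795, 0.00524). The HKO-con mean lay near the 0.0490 to 0.0605 CPM that 3 counts made in those livers, so the size of that log2 FC is uncertain. *Ugp2*, which makes UDP-glucose, rose 3.11-fold in WT (1.63, 0.00369) and 2.41-fold in *Ahr* HKO (1.27, 0.00445). It was the 1 list gene called between genotypes on the ethanol diet (-1.11, 0.0294). In HKO-con livers 8 were lower and 1 higher than in WT-con livers, 56.2% of the list against 29.6% of all genes. Among the lower genes were *Gys2*, the liver glycogen synthase (-1.26, 0.0021), and *Phka2* (-1.39, 0.00108). Without 1 liver the list's calls numbered 3 to 4 with ethanol in WT, 7 to 9 in *Ahr* HKO, 5 to 8 between genotypes on the control diet (5 without WT-con liver 1), and 0 to 2 on the ethanol diet (0 without HKO-EtOH liver 1 or 3 or WT-EtOH liver 1 or 2).

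Of 9 genes of fructose use and the carbohydrate response, *Khk* (log2 FC 1.08, adjusted *P* value = 0.00597, edgeR) and *Tkt* (1.01, 0.00177) rose with ethanol in WT. In *Ahr* HKO 4 rose: *Slc2a5*, a fructose transporter (2.1, 0.00288), *Mlxipl*, which encodes ChREBP (1.10, 0.0101), *Tkt* (0.87, 0.0101) and *Khk* (0.77, 0.0328). The list's share called with ethanol was 22.2% in WT and 44.4% in *Ahr* HKO, against 9.47% and 30.8% of all genes. On the control diet 2 genes of the list were lower in *Ahr* HKO, 22.2% against 29.6% of all genes. They were *Slc2a5*, 5.98-fold lower (-2.58, 0.00124), and *Tkt* (-0.42, 0.0151). Without 1 liver, 2 to 3 genes were called with ethanol in WT, 3 to 4 in *Ahr* HKO and 1 to 2 between genotypes on the control diet.

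Of 28 genes of insulin signaling, 2 rose and 3 fell with ethanol in WT, and 8 rose and 4 fell in *Ahr* HKO, 17.9% and 42.9% of the list against 9.47% and 30.8% of all genes. The 5 calls in WT became 2 with the replicate block, 1 with limma on log2(FPKM + 0.1) and 0 to 3 without 1 liver (0 without WT-con liver 2 or 3), and the 12 in *Ahr* HKO became 6 to 11 without 1 liver. *Igfbp1*, which insulin represses and which is regulated much like *Pck1* and *G6pc*, had 11.2 to 25.0 CPM in WT-con and 80.1 to 344 CPM in WT-EtOH livers (log2 FC 3.64, adjusted *P* value = 0.0136, edgeR). In HKO-con livers it was 21.7 to 149 CPM, above WT-con by a log2 FC of 2.37 (0.0323), and in HKO-EtOH livers 66.0 to 126 CPM (0.09 against HKO-con, 0.921). The interaction was -3.53 (0.02). *Ptpn1*, a phosphatase that acts on the insulin receptor, was 3.85-fold higher in *Ahr* HKO on the control diet (1.95, 0.000896) and fell with ethanol there (-2.04, 0.00134).

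Of 37 genes for glucagon and cAMP signaling and gluconeogenic transcription factors, 5 rose with ethanol in WT, 13.5% against 9.47% of all genes. These became 3 with the replicate block, 1 with limma on log2(FPKM + 0.1) and 1 to 3 without 1 liver (1 without WT-con liver 2). *Nr4a1* (log2 FC 2.54, adjusted *P* value = 0.0295, edgeR), *Sik1* (1.26, 0.0324) and *Crem* (0.93, 0.00932), all cAMP-inducible genes, were among them. Between genotypes on the control diet 8 genes of the list were higher and 8 lower in *Ahr* HKO, 43.2% against 29.6% of all genes. These calls became 11 with the replicate block and 10 to 13 without 1 liver. *Pde4d* (-1.78, 0.0195) and *Ppargc1b* (-1.61, 0.0129) were among the lower genes. *Crem* was 2.62-fold higher in *Ahr* HKO than in WT on that diet (1.39, 0.0031). It fell with ethanol in *Ahr* HKO (-0.66, 0.045), with an interaction of -1.58 (0.00208). In *Ahr* HKO 8 rose and 4 fell with ethanol, 32.4% against 30.8% of all genes, and 7 to 10 were called without 1 liver. *Ppargc1a*, a coactivator of *Pck1* and *G6pc* transcription, rose in *Ahr* HKO from a mean of 4.40 ± 0.644 to 12.6 ± 0.93 CPM (1.51, 0.00182) and also rose in WT (0.60, 0.0417), by less (interaction 0.93, 0.00852). In the HKO-con livers it reached at most 4.87 CPM, below every WT liver.

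**Figure D5:**
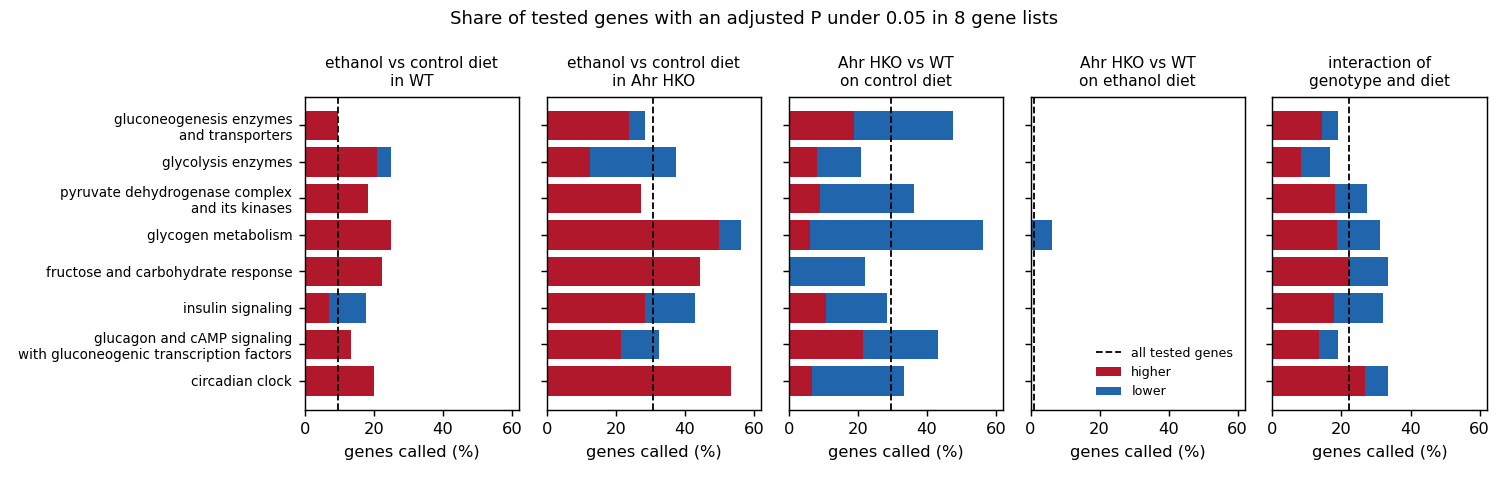
Share of the tested genes of 8 lists (y axis) that were called higher or lower (x axis, percent) in each comparison, with a dashed line at the share over all 14038 genes. On the ethanol diet 1 gene of 1 list, *Ugp2*, was called between genotypes.

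Several of these genes follow the time of day, and the 15 tested clock genes were counted for that reason. With ethanol 3 rose in WT and 8 in *Ahr* HKO (median log2 FC 0.18 and 0.98), and the median interaction was 0.87. These are 20.0% and 53.3% of the list, against 9.47% and 30.8% of all genes. The count in WT was 1 with the replicate block or without WT-con liver 2, and that in *Ahr* HKO was 3 with the replicate block and 2 without HKO-EtOH liver 2 or HKO-con liver 2. *Nfil3* rose in WT (log2 FC 1.44, adjusted *P* value = 0.00143, edgeR), as did *Per1* (1.34, 0.0221), the nearest profile to *Pck1*. *Dbp*, a clock output, was 4.22-fold lower in *Ahr* HKO than in WT on the control diet (-2.08, 0.0108) and 4.98-fold higher with ethanol in *Ahr* HKO (2.31, 0.038). *Dbp* differed between livers of 1 group: it measured 37.2, 113 and 74.6 CPM in WT-EtOH livers 1 to 3, and 33.9, 179 and 141 CPM in HKO-EtOH livers 1 to 3. *G6pc* measured 684, 84.3 and 1019 CPM and 1014, 181 and 251 CPM in the same livers, so that the lowest *Dbp* of the HKO-EtOH livers went with the highest *G6pc*, and the highest *Dbp* of each ethanol group with its lowest *G6pc*. The control-diet livers did not show this order. In WT-con livers 1 to 3 *Dbp* was 83.4, 96.1 and 121 CPM beside 118, 88.9 and 187 CPM of *G6pc*, and in HKO-con livers 41.1, 12.5 and 17.5 CPM beside 225, 168 and 313 CPM. This pairing was noticed after the values were seen, and the part of collection time in the *G6pc* and *Pck1* results was not tested.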

How the data were processed

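RNA-seq of 12 mouse livers in 4 groups of 3 was analysed, grouped from the labels alone. The authors deposited whole-number counts per gene without normalization, FPKM values (counts scaled by the authors to gene length and library size) and TPM values, the last of which were not used here. The submitters' processing notes name FastQC 0.11.7, Trimmomatic 0.38, HISAT2 2.1.0, Bowtie2 2.3.4.1, StringTie 1.3.4d and the build mm10. Their settings, and the handling of reads shared by similar genes, are not given in the sources used here.

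Counts were filtered with filterByExpr over the 4 groups (14038 of 24532 genes kept), scaled by TMM (factors 0.925 to 1.16) and tested with edgeR 4.0.16 (quasi-likelihood test) in R 4.3.3. Pairs of groups were fitted from their 6 libraries alone and the interaction from all 12, and *P* values were adjusted by Benjamini-Hochberg over all tested genes. CPM are counts over TMM-scaled totals. Alternatives were DESeq2 1.42.0, upper-quartile scaling, no filter, at least 10 counts in every library, all 12 libraries in 1 fit, a replicate block, limma 3.58.1 on quantile-normalized log2(FPKM + 1) or log2(FPKM + 0.1), a minimum FC of 1.5, and leaving out each liver. The scripts were tested on simulated data. Plots were drawn with matplotlib 3.10.9 in Python 3.11.15.

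The 9 genes and all lists were chosen with earlier results of these data known, so counts over lists are descriptions. Named beyond the 9 genes were, per list and comparison, up to 4 called genes with the largest log2 FC, the 3 nearest profiles of each called gene, the check genes and the markers. *Apex2* and the per-liver *Dbp* values were added after the values were seen. Nothing in the labels says how the livers of a group relate beyond being separate samples. The *P* values weigh a difference between groups against the spread between livers, which edgeR estimates in part from all tested genes. None of the 66 library pairs had identical counts. List genes *Gyk*, *Dak* and *Tf* had no matching symbol, and may be present under another one. Promoter windows came from RefSeq (GRCm38.p6) and exons from GENCODE.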

Additional observations from a re-analysis of the deposited data

Results flagged for a closer look

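The effect of ethanol on *Pfkfb1* differed between genotypes by a test of the difference itself: the interaction was 1.89 on the log2 scale (SE 0.28, adjusted *P* value = 0.00149, edgeR), with a log2 FC of -1.55 in WT and 0.33 in *Ahr* HKO. The 3 WT-EtOH livers lay below the other 9 livers.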

How the results depend on the processing

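Between genotypes on the ethanol diet 155 genes were called, against 1512 with DESeq2, 575 with all 12 libraries in 1 fit, 245 with the replicate block and 68 with limma on log2(FPKM + 0.1), and 7 to 189 without 1 liver. Of the 9 genes, 3 were called there, 6 with DESeq2, 2 each with upper-quartile scaling, no filter and the replicate block (*Pfkfb2* lost), 0 and 0 with limma, and 0 to 3 without 1 liver. In WT, 1329 genes were called with ethanol, 2335 with DESeq2, 517 with the replicate block and 367 to 1026 without 1 liver, and 3 to 4 of the 9 genes without 1 liver. Without 1 liver, 2588 to 3792 genes were called with ethanol in *Ahr* HKO (4322 with all), 2630 to 3748 between genotypes on the control diet (4161) and 2267 to 3084 in the interaction (3137). Of the 9 genes, limma called 2 and 2 with ethanol in *Ahr* HKO (*Pcx* added) and 3 and 3 in the interaction (*Fbp1* and *Pcx* added), and 1 to 2 were called in the interaction without 1 liver. On the control diet, 6 of 9 were called between genotypes with DESeq2, 5 with all 12 libraries, 5 with limma on log2(FPKM + 1), and 1 to 4 without 1 liver.

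Of small differences, none of them called, *Fbp1* between genotypes on the control diet turned to -0.04 with upper-quartile scaling and to -0.02 and -0.02 with limma, *Pcx* between genotypes on the ethanol diet to -0.04 and -0.04 with limma, and the *Pklr* interaction to -0.05 and -0.04 with limma. Without 1 liver, the log2 FC ran from -0.17 to 0.85 for *Pfkfb3* with ethanol in WT, -0.12 to 1.43 for *G6pc* with ethanol in *Ahr* HKO, -0.06 to 0.19 for *Fbp1* between genotypes on the control diet, and -1.45 to 0.33 and 0.0 to 0.17 for *G6pc* and *Pcx* on the ethanol diet. The interaction ran from -0.40 to 0.09 for *Pck1*, -0.21 to 0.46 for *Pklr* and -0.42 to 0.60 for *Pfkfb3*. The causes were not tested. Over the 9 genes and 5 comparisons, the alternatives other than leaving out a liver kept 314 results on the same side of the threshold, gained 20 calls and lost 10.

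Of 18 same-numbered pairs of livers, 2 had a correlation of deviations over 0.1 (range -0.0884 to 0.178). Both joined a WT-EtOH to an HKO-EtOH liver, those numbered 1 (0.178) and 2 (0.133). The same livers paired crosswise gave -0.182 and -0.142, and the remaining same-numbered pair of these groups gave -0.0119. Deviations from the mean of a small group depend on each other, so these correlations cannot decide whether same-numbered livers were handled together. The number is that of the sample titles, and in the deposited column names same-numbered livers do not all carry the same liver number. The replicate block rests on the title number alone and stands for no known pairing, and shared handling was not tested.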
